A study of Brassica rapa subsp. chinensis with 24 samples.

Results

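Leaves of Choy-sum seedlings raised from bacteria-dressed seed were compared with leaves of seedlings from undressed seed on day 8 after treatment, across all identifiers of the deposited count table. Choy-sum (Brassica rapa subsp. chinensis) is a leafy vegetable of the cabbage family. The dressing, called SAB, is a consortium of Streptomyces, Agromyces and Bacillus, and the control seeds, called untreated here, were given a soak in magnesium sulfate. Both groups were wild type plants grown in pots of peat-moss soil at 22 °C with 16 h of light and 8 h of darkness a day, and whole leaves were taken at the true leaf stage. The comparison uses 3 SAB libraries and 3 untreated libraries, described as independent biological replicates, of the 24 libraries in the series. Leaves of day 18 and roots of day 8, with 3 SAB and 3 untreated libraries each, are used only to show where day 8 leaves differ. The labels used here do not say how many plants went into a library, or whether dressed and undressed plants were sown and harvested together.

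The question is which transcript levels a seed treatment had shifted in the young leaf, well away from the seed to which the bacteria were applied. In Arabidopsis, leaf cells that sense microbes, wounding, cold or touch respond within minutes to hours through calcium influx and mitogen-activated protein kinases. A first wave of short-lived transcripts follows, for zinc finger, WRKY, ethylene response and CBF/DREB transcription factors, calmodulin-like proteins, ubiquitin ligases and phosphatases. Slower hormone branches run through jasmonate and salicylic acid, and growth genes such as expansins, which loosen the cell wall, act at the other end of the balance between growth and defense.

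Of the 20564 identifiers in the table, 17706 passed the filter on low counts and were tested. The identifiers are written as Arabidopsis loci and are read as such, so the gene names and roles below are those of Arabidopsis. A total of 14451 identifiers label 2 or more rows, and a sum over rows may mix several Brassica gene copies. Levels are CPM, estimated counts scaled to a common library total. They are compared only between libraries, since they are not per length. The 6 libraries held 28068078 to 35151332 estimated counts, and the mean rank correlation of a library with the others of its group was 0.983 to 0.985. By this measure none stood apart, which does not cover the called identifiers taken alone. Photosystem and light-harvesting genes took 14.8% to 16.9% of the counts in these leaves against 0.0291% to 0.0546% in roots of day 8. Root markers took between 0.00140% and 0.00178% of SAB libraries, and between 0.00147% and 0.00177% of untreated ones in leaf, against 0.244% to 0.299% in roots. CASP1, a protein of the root endodermis, stood at 0.0128 CPM in SAB leaves, 0.0104 CPM in untreated leaves and 187 CPM in untreated roots, and CASP4 and the meristem gene STM were at 0 in all 6 leaf libraries. Other genes of the meristem and flower list were present, such as SOC1 at 5.76 CPM in SAB and 5.98 CPM in untreated leaves. Photosystem genes and root markers thus separated leaf from root as the Arabidopsis genes do. Not every marker did: the guard cell gene FAMA stood at 27.5 CPM in untreated leaves and 13.4 CPM in untreated roots.

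SAB leaves had 69 identifiers higher and 6 lower than untreated leaves at a Benjamini-Hochberg adjusted p under 0.05 (edgeR quasi-likelihood test), which is 0.39% and 0.0339% of those tested and 0.424% in all. The rises included transcription factors of the CBF/DREB, ethylene response, WRKY and zinc finger families, calmodulin-like proteins, ubiquitin ligases, a defense-regulating phosphatase and an ethylene synthesis enzyme. The falls included an expansin, a SAUR gene and the brassinosteroid-responsive BRH1. Of the 69, 51 rose at least 2-fold, and the median log2 fold change over the 68 with both groups above 0 was 1.23. Of the 6 that fell, 5 fell at least 2-fold, with a median log2 fold change of -1.16. In all 75 the 3 SAB libraries lay wholly above or wholly below the 3 untreated ones, which also held for 19.9% of all identifiers tested. Unadjusted p was under 0.05 for 1597 identifiers, or 9.02%. In bulk leaf, fewer cells of a type and less RNA per cell cannot be told apart.

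The number of calls rested on single libraries. It was 3 without SAB replicate 1, 2 without SAB replicate 2, 62 without SAB replicate 3, 4 without untreated replicate 1, 2 without untreated replicate 2 and 31 without untreated replicate 3. All 75 kept their sign in each of these 6 fits, but only WRKY40 and AP2C1 were called in every one, and 23 were called in none. With limma-voom 7 of the 75 were not called: ATPS3, DDF2, ERF120, CBF4, BPS3, AT3G54000 and EXL2.

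**Figure D1:**
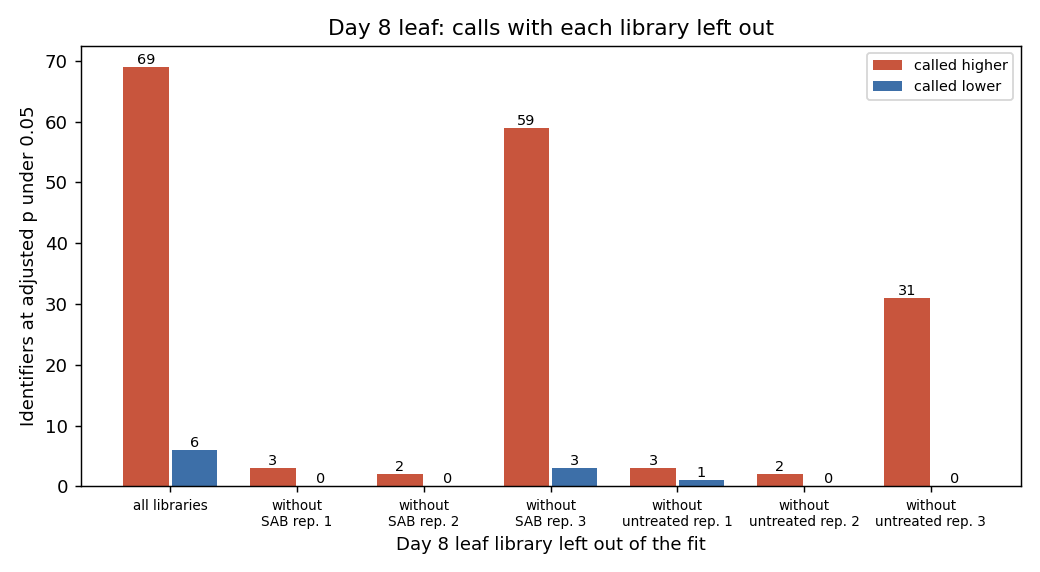
Number of identifiers called higher or lower in day 8 SAB leaves (y axis) with all libraries and with each day 8 leaf library left out (x axis). Calls go from 69 higher and 6 lower with all libraries to 3 or fewer higher when SAB replicate 1 or 2, or untreated replicate 1 or 2, is left out.

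**Figure D2:**
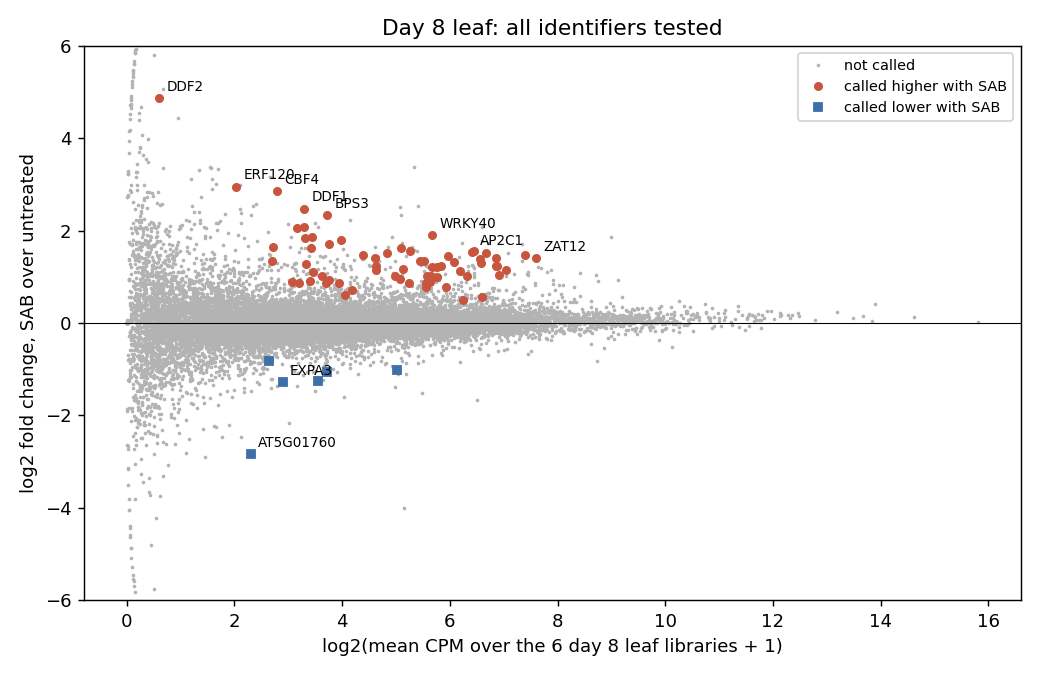
Each point is an identifier tested in day 8 leaf, by log2 of its mean CPM plus 1 (x axis) and its log2 fold change of SAB over untreated (y axis), with 35 identifiers beyond the y axis and ATPS3 not drawn. The called rises, in red, spread over low and middle levels, and the most abundant identifiers at the right lie near 0.

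Among transcription factors, CBF4, DDF1 and DDF2 rose. All 3 belong to the CBF/DREB family, which binds dehydration and cold response elements, and DDF1 is known for lowering gibberellin levels when overexpressed. CBF4 stood at 12, 9.94 and 9.26 CPM in SAB leaves and at 0.964, 1.26 and 2.04 CPM in untreated leaves. Every SAB library was far above the highest untreated one, and the log2 fold change was 2.85 (SE 0.419, edgeR adjusted p = 0.0188). DDF1 stood at 16.2, 16.4 and 12.1 CPM against 1.98, 2.61 and 3.39 CPM, a log2 fold change of 2.48 (SE 0.328, edgeR adjusted p = 0.0141). DDF2 was near the limit of detection: its estimated counts were 31, 35 and 25 in the SAB libraries and 0, 1 and 2 in the untreated ones. The ratio of their sums per library total was 30.3, with an exact 95% interval of 10.1 to 150 that covers counting error only and takes estimated counts as reads (edgeR adjusted p = 0.0472). With limma-voom CBF4 and DDF2 were not called (adjusted p = 0.198 and 0.388), and DDF2 was called in 0 of the 6 fits that left out a library.

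Of the 11 CBF/DREB identifiers tested, 3 rose and 8 did not pass. The list had a median log2 fold change of 1.24 against -0.0060 over all identifiers. Of its members, 7 lay wholly above (background 10.1%) and 2 wholly below (background 9.74%). DREB2A, a drought and heat factor, gave 122, 109 and 96.7 CPM in SAB leaves and 34.1, 49.3 and 67.0 CPM in untreated leaves, without passing the test (edgeR adjusted p = 0.19). The cold and dehydration response genes, among them known targets of CBF factors, had 0 calls among 7 tested (1 with an unadjusted p under 0.05 against 9.02% of all identifiers, and 0 calls by DESeq2 or limma-voom) and a median of 0.0067. COR47, a dehydrin, stood at 405 ± 43.3 CPM in SAB and 412 ± 51.6 CPM in untreated leaves (SD, n = 3 libraries).

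WRKY40 rose with the smallest adjusted p of the comparison, shared with AP2C1. WRKY40 is an early, microbe- and wound-induced transcription factor that restrains defense together with WRKY18 and WRKY60. It stood at 89.2, 79.5 and 68.1 CPM in SAB leaves and at 17.77, 24 and 21.4 CPM in untreated leaves. The lowest SAB library was thus far above the highest untreated one, and the log2 fold change was 1.91 (SE 0.157, edgeR adjusted p = 0.00121). Of the 3 rows of WRKY40, the first held 81.9% of the untreated level and the second 16.3%. These 2 rows rose each on their own, by a log2 fold change of 1.95 and 1.71 (edgeR adjusted p = 0.015 and 0.0341 over all rows). No row of any identifier was called without SAB replicate 1, without untreated replicate 1, with the block or in the 6 libraries alone.

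WRKY11, a negative regulator of basal resistance, rose less: it stood at 60.9, 61.4 and 52.9 CPM in SAB leaves and at 34.3, 37.7 and 30.6 CPM in untreated leaves. The groups did not overlap, and the log2 fold change was 0.77 (SE 0.0954, edgeR adjusted p = 0.014). Of 35 WRKY identifiers tested, these 2 rose and 33 did not pass edgeR's test, while DESeq2 called 5. The list median was 0.29, and 12 members lay wholly above and 3 wholly below, against 10.1% and 9.74% of all identifiers. WRKY33, a regulator of camalexin synthesis and resistance to necrotrophic fungi, gave 346, 314 and 250 CPM against 119, 177 and 128 CPM. Its groups did not overlap, but it did not pass (edgeR adjusted p = 0.0669); it and the other uncalled genes given with library values were picked after their values were seen.

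Zinc finger repressors of stress responses were the list with the second highest median, after CBF/DREB. AZF2, a repressor that takes part in abscisic acid and salt responses, stood at 60.6, 47.2 and 43.0 CPM in SAB leaves and at 11.0, 17.2 and 20.4 CPM in untreated leaves. The log2 fold change was 1.63 (SE 0.268, edgeR adjusted p = 0.033). ZAT12, which responds to oxidative stress, high light and cold, stood at 315, 338 and 188 CPM against 81.2, 114 and 123 CPM. SAB replicate 3 was the lowest of its group and still above every untreated library, and the log2 fold change was 1.4 (SE 0.234, edgeR adjusted p = 0.0331). The 8 zinc finger identifiers tested had a median log2 fold change of 1.11, with 2 called higher, 6 not called and 5 wholly above (background 10.1%). ZAT10, a close relative, gave 272, 227 and 192 CPM against 66.1, 101 and 107 CPM and did not pass (edgeR adjusted p = 0.0778).

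Ethylene response factors were represented by ERF11 and ERF4, which carry a repressor motif. ERF11 stood at 94.2, 98.9 and 93.6 CPM in SAB leaves and at 28.6, 36.2 and 49.3 CPM in untreated leaves, and its log2 fold change was 1.33 (SE 0.228, edgeR adjusted p = 0.037). ERF4 stood at 67.5, 70.3 and 73.3 CPM against 30.5, 32.5 and 43.5 CPM, a log2 fold change of 0.99 (SE 0.179, edgeR adjusted p = 0.0472). In both genes the SAB libraries lay close together and untreated replicate 3 was the nearest to them. Of 25 tested, 2 rose and 23 did not pass, with a median of 0.34 and 11 wholly above (background 10.1%). RRTF1, a redox-responsive factor, gave 81.3, 80.7 and 52.9 CPM against 2.67, 6.27 and 11.4 CPM. Its untreated libraries varied widely among themselves, and it did not pass (edgeR adjusted p = 0.122).

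Outside the lists, 2 other AP2/ERF factors were among the largest rises. ERF120 stood at 5.14, 6.52 and 4.75 CPM in SAB leaves and at 0.590, 0.569 and 0.953 CPM in untreated leaves, and its log2 fold change was 2.95 (SE 0.534, edgeR adjusted p = 0.0472). ERF043 stood at 15.5 CPM in each SAB library and at 4.27, 3.14 and 5.46 CPM in untreated leaves, and its log2 fold change was 1.85 (SE 0.28, edgeR adjusted p = 0.0218). The groups were apart in both, though the untreated level of ERF120 was under 1 CPM. BBX32, a B-box protein that works in light signaling with HY5, stood at 8.63, 9.87 and 7.01 CPM against 1.88, 3.22 and 2.98 CPM, a log2 fold change of 1.65 (SE 0.234, edgeR adjusted p = 0.0156). It was the only call by edgeR among 22 light signaling identifiers, whose median was 0.20, and DESeq2 called 2 of them higher.

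**Figure D3:**
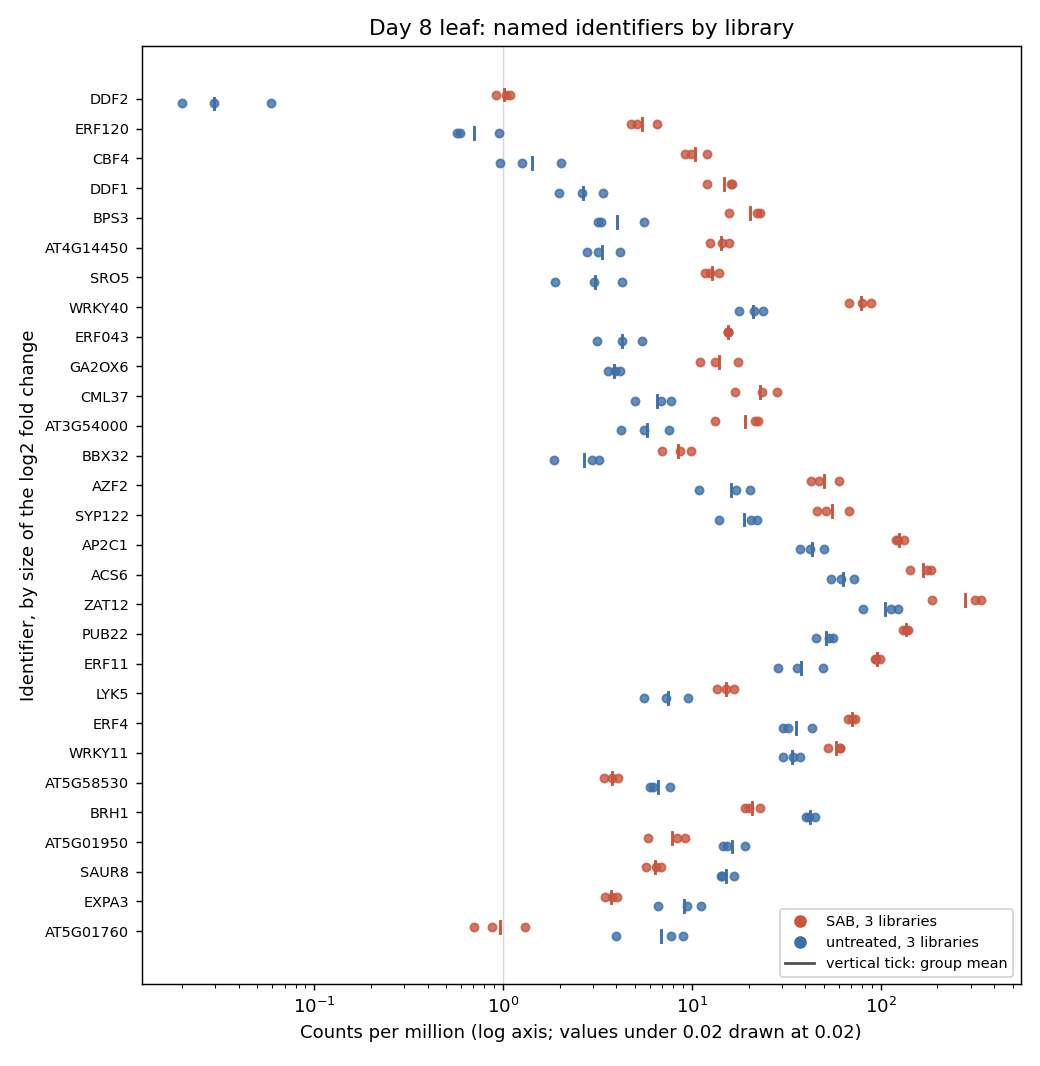
CPM on a log axis (x axis) in the 3 SAB and 3 untreated day 8 leaf libraries for the identifiers named from the calls (y axis), without ATPS3, with the group mean as a tick. Red and blue points are apart in every line, from DDF2 near 1 CPM to ZAT12 at 188 to 338 CPM in SAB leaves; levels are to be compared within a line only.

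Signaling genes of pattern-triggered immunity, the defense layer started by microbial molecules, gave 4 of the calls. AP2C1, a phosphatase that switches off stress-activated kinases, stood at 124, 134 and 120 CPM in SAB leaves and at 37.5, 42.2 and 50.5 CPM in untreated leaves. The spread within each group was small beside the gap, and the log2 fold change was 1.53 (SE 0.124, edgeR adjusted p = 0.00121). PUB22, a ubiquitin ligase that dampens immune signaling, stood at 131, 140 and 136 CPM against 45.3, 55.7 and 53.3 CPM, a log2 fold change of 1.4 (SE 0.244, edgeR adjusted p = 0.0396). SYP122, a membrane fusion protein of defense secretion, stood at 51.4, 68.4 and 46.3 CPM against 20.6, 22.2 and 13.9 CPM, a log2 fold change of 1.55 (SE 0.207, edgeR adjusted p = 0.0141). LYK5, the main chitin-binding receptor kinase, stood at 16.8, 15.2 and 13.7 CPM against 5.61, 9.54 and 7.35 CPM, a log2 fold change of 1.02 (SE 0.173, edgeR adjusted p = 0.0362). No library of one group reached into the other in these 4 genes.

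Of the 39 immunity identifiers tested, the 4 above rose and 35 did not pass edgeR's test, while DESeq2 called 11. The list median was 0.39, 19 members lay wholly above (background 10.1%) and 2 wholly below (background 9.74%), and 19 had an unadjusted p under 0.05 (background 9.02%). FLS2, the receptor of bacterial flagellin, stood at 20.8 CPM in SAB and 23.8 CPM in untreated leaves, and its coreceptor BAK1 at 75.7 and 73.2 CPM, and neither passed (edgeR adjusted p = 0.968 for both). FRK1, a common marker of this response, was under 2 CPM in all 6 libraries.

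The rises also held calmodulin-like proteins. CML37, a calmodulin-like calcium sensor induced by wounding, stood at 23.7, 28.2 and 17.0 CPM in SAB leaves and at 5.03, 6.88 and 7.75 CPM in untreated leaves. The log2 fold change was 1.80 (SE 0.215, edgeR adjusted p = 0.014), and it was the only call by edgeR of 14 calmodulin-like and touch-induced identifiers, whose median was 0.58 with 8 wholly above (background 10.1%). DESeq2 called 5 of them higher. CML45, another member of the family outside that list, rose by 1.24 on the log2 scale (SE 0.219, edgeR adjusted p = 0.0425). TCH4, a touch-induced cell wall enzyme, gave 934, 831 and 641 CPM against 187, 225 and 248 CPM; the groups did not overlap, but it did not pass (edgeR adjusted p = 0.17).

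Ubiquitin ligases among the rises were PUB22, PUB17, PUB9, PUB29, RDUF2 and RING1. PUB17, a positive regulator of cell death in resistance, stood at 104, 96.0 and 69.2 CPM in SAB leaves and at 25.1, 35.2 and 37.5 CPM in untreated leaves, and its log2 fold change was 1.46 (SE 0.19, edgeR adjusted p = 0.0141). RDUF2, which acts in drought response, stood at 187, 171 and 185 CPM against 65.8, 82.5 and 95.6 CPM, a log2 fold change of 1.15 (SE 0.144, edgeR adjusted p = 0.014). PUB9, PUB29 and RING1 rose less, with log2 fold changes of 0.89, 0.86 and 0.73. The 2 Nudix hydrolases NUDT21 and NUDT4 rose by 1.48 and 1.29 on the log2 scale, and the choline kinase CK1 by 1.52. RIPK, a kinase that phosphorylates the immune regulator RIN4, rose by 0.88 on the log2 scale (edgeR adjusted p = 0.0149).

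Further rises outside the lists were BPS3, SRO5, TET8, ATAF2, IDL6, SAP6, SCL13, FBS3, ACR7, EXL2, UGT73B1 and the arabinogalactan proteins AGP1 and AGP20. BPS3, a relative of BYPASS1, which limits a root-borne signal that arrests shoot growth, stood at 23.1, 22.1 and 15.7 CPM in SAB leaves and at 3.33, 3.2 and 5.58 CPM in untreated leaves, and its log2 fold change was 2.33 (SE 0.384, edgeR adjusted p = 0.033). SRO5, which takes part in salt and oxidative stress responses, stood at 13.9, 12.5 and 11.8 CPM against 3.04, 1.90 and 4.25 CPM, a log2 fold change of 2.05 (SE 0.353, edgeR adjusted p = 0.037). IDL6 encodes a small secreted peptide related to the abscission signal IDA, and TET8 a tetraspanin of extracellular vesicles. They rose by 1.01 (SE 0.113, edgeR adjusted p = 0.0139) and 1.03 (SE 0.138, edgeR adjusted p = 0.0141) on the log2 scale. AT4G14450 and AT3G54000, given by identifier only, were also among the 12 largest rises with at least 5 CPM in 1 group, at 14.3 ± 1.65 against 3.37 ± 0.707 CPM and 19.2 ± 5.08 against 5.81 ± 1.70 CPM (SD, n = 3 libraries).

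Among hormone genes, an enzyme of ethylene synthesis and an enzyme of gibberellin inactivation rose. ACS6, the ethylene synthesis enzyme that stress-activated kinases stabilize, stood at 185, 176 and 144 CPM in SAB leaves and at 54.8, 61.6 and 72.5 CPM in untreated leaves. The log2 fold change was 1.42 (SE 0.198, edgeR adjusted p = 0.0156). The other 18 ethylene synthesis and signaling identifiers did not pass, and the list median was 0.02. GA2OX6, an enzyme that inactivates gibberellins, stood at 17.5, 13.3 and 11.0 CPM against 3.59, 3.91 and 4.18 CPM. All 3 SAB libraries were far above the untreated ones, and the log2 fold change was 1.84 (SE 0.217, edgeR adjusted p = 0.014). The other 19 gibberellin identifiers did not pass, and their list median was -0.10. GA20OX1 and GA3OX1, which make active gibberellins, stood at 1.05 and 1.74 CPM in SAB leaves and at 1.55 and 2.07 CPM in untreated leaves, with overlapping groups.

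Jasmonate and salicylic acid branches held 0 calls by edgeR or limma-voom. Of all identifiers, 9.02% had an unadjusted p under 0.05, 10.1% lay wholly above and 9.74% wholly below. Of 18 jasmonate synthesis and inactivation identifiers, 4 had an unadjusted p under 0.05 and 1 was called higher by DESeq2, with a median log2 fold change of 0.15. In this list 3 members lay wholly above and 1 wholly below. LOX2, the chloroplast lipoxygenase of jasmonate synthesis, stood at 137 ± 39.1 CPM in SAB and 174 ± 46.3 CPM in untreated leaves (SD, n = 3 libraries). Of 18 identifiers of jasmonate perception, JAZ repressors and response, 3 had an unadjusted p under 0.05 and DESeq2 called 0, with a median of 0.27. Here 8 members lay wholly above and 1 wholly below. JAZ1, a repressor of the pathway that it induces, gave 16.0, 16.9 and 12.7 CPM against 4.83, 7.36 and 6.02 CPM without overlap and did not pass (edgeR adjusted p = 0.547). VSP2, a wound marker, overlapped at means of 3.13 and 3.87 CPM. Among 19 salicylic acid and acquired resistance identifiers, 2 had an unadjusted p under 0.05 and DESeq2 called 1 higher, with a median of 0.22. Of these identifiers 6 lay wholly above and 0 wholly below. PR2, a glucanase marker of this branch, stood at 291 ± 95.8 CPM in SAB and 302 ± 40.2 CPM in untreated leaves (SD, n = 3 libraries).

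The abscisic acid, auxin, cytokinin and brassinosteroid lists, with 26, 24, 16 and 12 identifiers tested, had 0 calls by edgeR or limma-voom and medians of 0.01, 0.05, -0.07 and -0.04. Unadjusted p was under 0.05 for 5, 3, 0 and 2 of them (background 9.02%), and DESeq2 called 2, 2, 0 and 0 higher. With library totals in place of the scaling factors the median of all identifiers was -0.09, and the abscisic acid, auxin, ethylene, iron and cold response medians, all near 0, turned below 0.

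Falls were fewer than rises. EXPA3, an expansin, stood at 3.78, 4.03 and 3.46 CPM in SAB leaves and at 6.62, 9.49 and 11.2 CPM in untreated leaves, and fell by 1.28 on the log2 scale (SE 0.198, edgeR adjusted p = 0.025). SAUR8, of the auxin-regulated SAUR family, stood at 5.75, 6.49 and 6.85 CPM against 16.7, 14.4 and 14.6 CPM and fell by 1.26 (SE 0.197, edgeR adjusted p = 0.0266). BRH1, a RING finger gene that brassinosteroid represses in Arabidopsis, stood at 19.3, 20.2 and 23.0 CPM against 45.0, 42.0 and 40.1 CPM and fell by 1.02 (SE 0.171, edgeR adjusted p = 0.0331). In each of these the groups were apart. AT5G01760, AT5G01950 and AT5G58530 fell by 2.84, 1.06 and 0.82 on the log2 scale. Of 25 expansins and xyloglucan enzymes tested, EXPA3 was the only call by edgeR, with 6 members wholly above and 5 wholly below, while DESeq2 called 2 members higher and 1 lower. Over all identifiers, 10.1% lay wholly above and 9.74% wholly below. The list median was 0.25, and 17 of the 25 members had a log2 fold change above 0. EXPA1, EXPA8, EXPA10 and EXPA11 were lower in every SAB library than in every untreated one without passing. TCH4 and XTH23, a pair of xyloglucan enzymes among the 6 members wholly above, did not pass either.

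Photosynthesis genes did not pass the test at day 8. Of 47 photosystem and light-harvesting identifiers, 0 were called by edgeR, DESeq2 or limma-voom and 2 had an unadjusted p under 0.05 (background 9.02%), with a median log2 fold change of 0.12. LHCB1.3, a light-harvesting protein, stood at 26534 ± 2665 CPM in SAB and 24159 ± 2676 CPM in untreated leaves, and RBCS1A, the small subunit of Rubisco, at 57795 ± 9431 and 56942 ± 5239 CPM (SD, n = 3 libraries). The 19 Calvin cycle identifiers and the 30 of cell cycle and DNA replication also had 0 calls by any of these tools and 0 with an unadjusted p under 0.05, with medians of 0.18 and -0.13. A log2 fold change above 0 was found for 44 of the 47 photosystem, 18 of the 19 Calvin cycle and 7 of the 30 cell cycle identifiers. Over all identifiers without a group at 0 it was 8599 of 17587. Wholly above lay 5, 3 and 0 of these lists (background 10.1%), and wholly below 0, 0 and 4 (background 9.74%). The 24 phosphate, 24 nitrogen and 17 iron identifiers tested had 0 calls by edgeR or limma-voom, with medians of -0.03, 0.06 and 0.07. Unadjusted p was under 0.05 for 4, 1 and 3 of them (background 9.02%), and DESeq2 called 1, 0 and 0 higher.

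In the sulfate list ATPS3, an ATP sulfurylase, was called on low values, at 2.85, 0.834 and 1.48 CPM in SAB leaves and 0 in all untreated ones (edgeR adjusted p = 0.033), and no fold is given. In leaves of day 18 its means were 5.4 ± 1.45 CPM in untreated and 2.73 ± 2.29 CPM in SAB plants (SD, n = 3 libraries). There the groups overlapped and the difference was not called (edgeR adjusted p = 0.336). By edgeR, 11 of the 39 lists had a called member and 28 had none; of those 28, DESeq2 called members in 10 and limma-voom in 0.

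**Figure D4:**
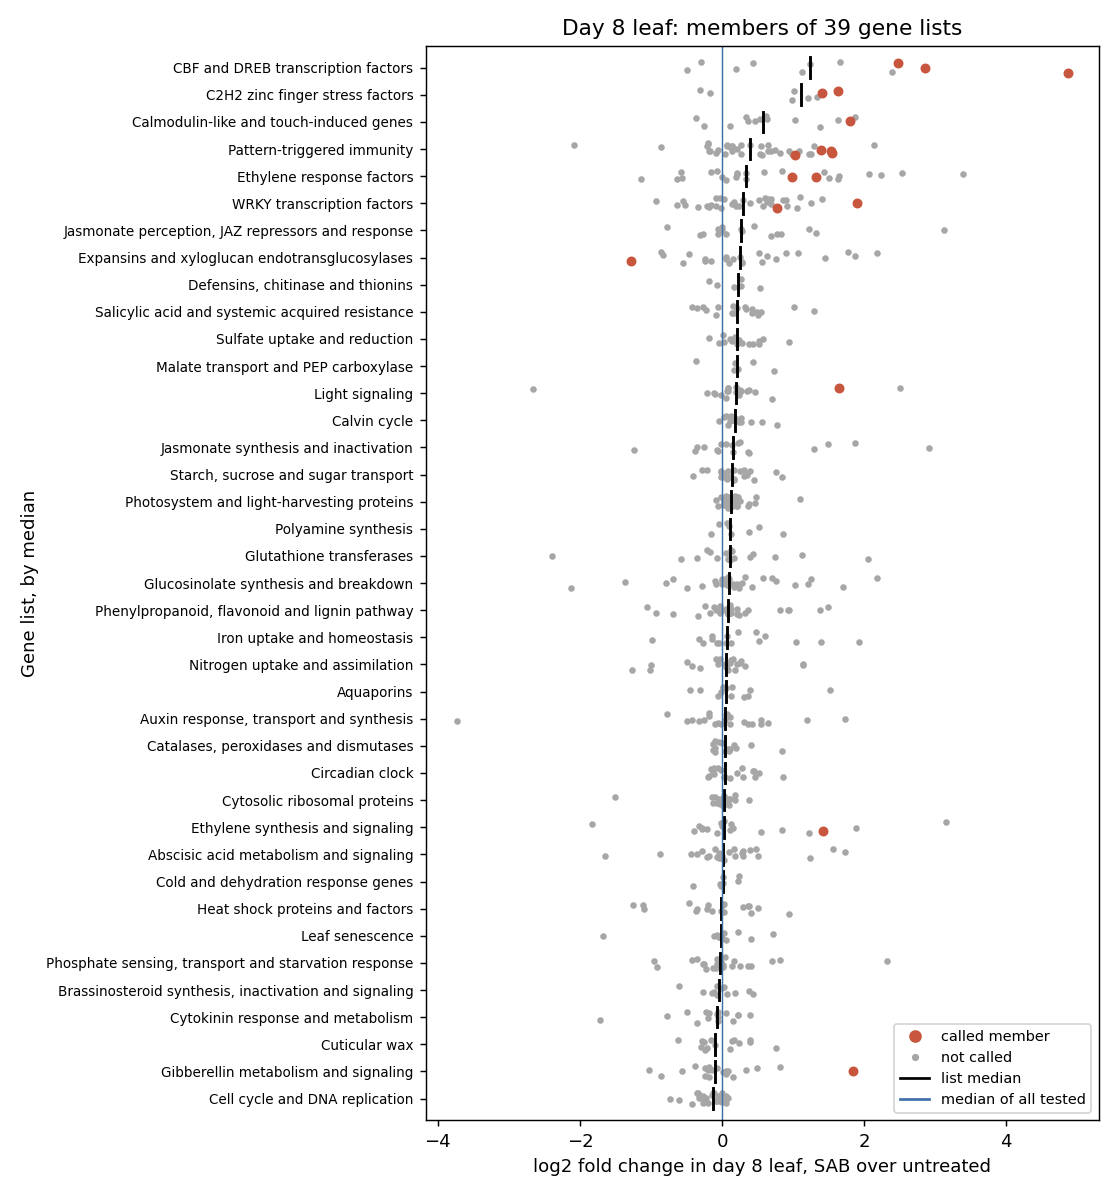
Log2 fold change of SAB over untreated in day 8 leaf (x axis) for the tested members of 39 gene lists (y axis), with called members in red, list medians as black ticks and the median of all identifiers as a blue line; ATPS3 is not drawn. CBF/DREB, zinc finger and calmodulin-like lists have the highest medians, at 1.24, 1.11 and 0.58, and photosynthesis lists lie in a narrow band near 0.

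The 3 phloem marker identifiers took 0.0320% to 0.0353% of counts in SAB leaves and 0.0245% to 0.0304% in untreated leaves without overlap, and 0 of the 3 passed edgeR's test, 1 had an unadjusted p under 0.05 (background 9.02%), and DESeq2 and limma-voom called 0. None of them was at 0. Guard cell markers took 0.00688% to 0.00867% and 0.00709% to 0.00788%, which overlapped, with 0 of 6 called by any of these tools and 1 at an unadjusted p under 0.05. The part of phloem content in the results was not tested.

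The calls of day 8 were also seen in leaves of day 18, which are other libraries but were fitted together with those of day 8. The tests of day 18 thus share the estimate of spread per identifier by which the day 8 calls were made. The day 18 calls below are therefore not independent of that selection. Of the 69 risen identifiers, 66 were higher in SAB leaves of day 18 as well, against a background of 7.91%, and 67 had a log2 fold change above 0, against 49.8%. Their median there was 1.55. WRKY40 stood at 173, 226 and 233 CPM in SAB and 27.4, 25.9 and 30.3 CPM in untreated leaves of day 18, a log2 fold change of 2.92 (SE 0.162, edgeR adjusted p = 3.05e-05). Of the 6 that fell at day 8, SAUR8 alone was called lower at day 18 (background 6.52%), with a log2 fold change of -0.84, and all 6 lay below 0 (background 50.1%).

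A change of the effect between days was called for 7 of the 69, against a background of 2.46% that rests on 175 larger and 260 smaller effects at day 18, and on 571 and 156 when library totals replaced the scaling factors. These tests share the day 8 libraries by which the 69 were called. The effect was larger at day 18 for WRKY40, ACR7, SCL13, RING1 and AT1G69890, by 0.85 to 1.01 on the log2 scale. Of the 7 calls, 0 were left without SAB replicate 1, without SAB replicate 3, without untreated replicate 3 or with the replicate number as a block, and 1 to 3 without each of the other day 8 leaf libraries. AT5G17350 went the other way: it stood at 149 ± 6.29 CPM in SAB and 51.9 ± 8.39 CPM in untreated leaves of day 8, and at 150 ± 36.8 and 155 ± 44.5 CPM at day 18 (SD, n = 3 libraries), a change of -1.57 (SE 0.316, edgeR adjusted p = 0.037). ATPS3 was the other. The photosystem list differed between days in 8 of its 47 members, all with a more negative effect at day 18 (background 1.47%), where its median was -0.57 and 31 members fell; with library totals these were 9 members and a median of -0.40. With a day 8 leaf library left out, 0 to 3 of the photosystem members were called for this difference, and 0 with the block.

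In roots of day 8 the same identifiers lay on the other side. Of the 69, 68 had a log2 fold change below 0 in root, against 52.5% of all identifiers there, with a median of -1.04. A total of 38 were called lower in the fit of all 24 libraries (background 0.935%), and 0 in an edgeR fit of the 12 root libraries alone (background 0.0685%), where 68 also lay below 0 and 62 had an unadjusted p under 0.05. In fits of all 24 libraries DESeq2 called 57 lower and limma-voom 43, while library totals left 15 and the replicate block 10. WRKY40 stood at 53.4, 66.5 and 27.4 CPM in SAB roots and at 364, 142 and 172 CPM in untreated roots. Untreated root replicate 1 was the highest and no SAB root reached the untreated ones, and the log2 fold change was -2.20 (SE 0.341, edgeR adjusted p = 0.00898). The difference of the effects, root minus leaf, was called for 66 of the 69 and 1 of the 6, against 2.08% of all, in a test that shares the leaf libraries by which they were called. For CBF4 it was -4.73 (SE 0.636, edgeR adjusted p = 0.000497), with roots at 6.53, 7.79 and 2.72 CPM in SAB and 31.7, 11.9 and 18.4 CPM in untreated plants.

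**Figure D5:**
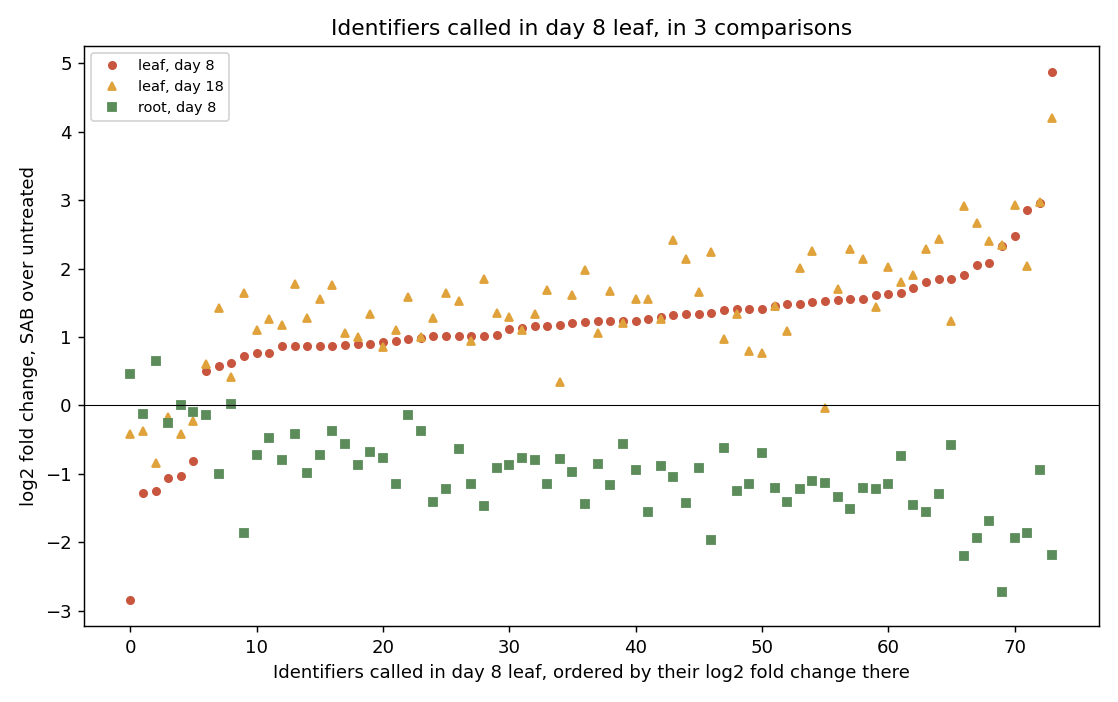
Log2 fold change of SAB over untreated (y axis) in day 8 leaf, day 18 leaf and day 8 root for the identifiers called in day 8 leaf, ordered by their day 8 leaf value (x axis), without ATPS3. Day 18 leaf points run along the day 8 leaf points for most identifiers, while day 8 root points lie below 0 for 68 of the 69 risen ones, ATPS3 included.

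Over the 69 identifiers together, no library of one treatment reached into the other in any organ or at any age examined. The median log2(CPM + 1) was 4.2, 4.55 and 4.62 in untreated and 5.76, 5.61 and 5.46 in SAB leaves of day 8, the contrast by which the identifiers were called. It was 4.83, 4.86 and 5.11 in untreated and 6.38, 6.51 and 6.55 in SAB leaves of day 18. In roots of day 8, on the scale of the 24-library fit, it was 6.60, 5.92 and 5.94 in untreated and 5.27, 5.48 and 4.83 in SAB plants. SAB was thus the higher group in leaves of both days and the lower group in roots of day 8, the only roots examined here.

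At the level of single rows, edgeR called 22 rows higher and 0 lower of 46762 tested (0.047% and 0%), with 2916 at an unadjusted p under 0.05, while DESeq2 called 146 lower and limma-voom 2. The 75 called identifiers hold 235 rows, of which 208 were tested and 196 had the direction of the sum, a direction the sums had fixed. Of the 52 with 2 or more tested rows, 42 had every tested row in that direction. PUB22 with its 10 rows is an example: its 3 most abundant rows had log2 fold changes of 1.42, 1.33 and 1.33, each short of the threshold over all rows.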

How the data were processed

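Per the labels' protocols, whole leaves gave polyadenylated RNA that was read from both ends over 100 bases. The submitters' processing notes list kallisto, Bowtie2 and Trim Galore, and what each was used for, with which version or index, is not stated there. In the deposited table the authors gave estimated counts for 66566 rows, of which 1.01% of the values above 0 are whole. Counts were summed per identifier and rounded. None of the 20564 identifiers (0) matched the reference gene table (assembly CAAS_Brap_v3.01), so names rest on reading them as Arabidopsis loci. At low levels 1 read may be worth several estimated counts, so low values are less precise than they look.

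The 12 leaf libraries were fitted together, and all 24 for root, with edgeR 4.0.16 (limma 3.58.1, R 4.3.3): TMM scaling, filterByExpr (minimum count 10, total 15), robust quasi-likelihood test, Benjamini-Hochberg adjustment over all identifiers, threshold 0.05. A standard error is the log2 fold change divided by the square root of F. List medians leave out identifiers at 0 in all libraries of a group. The procedure was tested on simulated data. Alternatives were DESeq2 1.42.0, limma-voom, other scaling, no filter, 6 libraries alone, a replicate block and each of the 6 day 8 leaf libraries left out. Libraries of day 18 and of root were not left out.

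The identifiers, gene lists and tests were chosen with earlier results of these data known. Named genes are, of called identifiers without overlap and with at least 5 CPM in 1 group, the 12 largest rises and 6 largest falls; every called list member; the 2 most abundant members of a list without calls, given for some lists; and other called identifiers where the Arabidopsis gene is known. Further genes are named as picked after their values were seen, FLS2, BAK1, FRK1, GA20OX1, GA3OX1, JAZ1, VSP2, the expansins and XTH23 included.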

Additional observations from a re-analysis of the deposited data

Results flagged for a closer look

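Differences between leaf and root in the effect of SAB at day 8 were called by a test of the difference for 67 of the 75 identifiers. Among the largest changes in leaf, root minus leaf on the log2 scale was -4.73 for CBF4, -4.44 for DDF1, -5.07 for BPS3, -3.78 for AT4G14450, -4.00 for SRO5 and -4.12 for WRKY40. It was -2.44 for ERF043, -3.15 for GA2OX6, -3.38 for CML37, -3.18 for AT3G54000 and -2.41 for BBX32. SAUR8, lower in SAB leaves, had a difference of 1.88.

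Differences between days in leaf were called for 7 of the 75. With SAB replicate 1, SAB replicate 3 or untreated replicate 3 left out, or with the replicate number as a block, 0 of the 7 were called. Day 18 minus day 8 on the log2 scale was 1.01 for WRKY40, 0.89 for ACR7, 0.90 for SCL13, 0.92 for RING1 and 0.85 for AT1G69890. It was -1.57 for AT5G17350, and ATPS3, at 0 in untreated leaves of day 8, is given no value. Groups of 3 libraries were not searched for single outlying libraries.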

How the results depend on the processing

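With all 6 libraries, the 75 calls of day 8 leaf kept their sign under every alternative run. DESeq2 called 314 identifiers higher and 77 lower, 391 in all, and a fit of only the 6 leaf libraries of day 8 called 195, 31 and 226. Scaling by DESeq2 size factors gave 79 calls, library totals 56 (48 higher, 8 lower), no filter 77 and limma-voom 76; 52 of the 75 were called with library totals. For the change between days, DESeq2 called 541 higher and 848 lower (1389), and library totals 571 and 156 (727). For root minus leaf, DESeq2 called 78 higher and 647 lower (725), library totals 41 higher and limma-voom 13 higher. Of single rows, DESeq2 size factors gave 34 calls, all higher (34), library totals 3 (3 higher), DESeq2 587 higher and 146 lower (733), limma-voom 2 lower, and the 6 libraries 0, with 3695 at an unadjusted p under 0.05. With each day 8 leaf library left out in turn, day 8 leaf had 2 to 59 higher, 0 to 3 lower and 2 to 62 in all. The change between days had 17 to 58 higher, 31 to 80 lower and 48 to 138 in all, and single rows had 0 to 28 higher, 0 to 7 lower and 0 to 35 in all. Root minus leaf had 10 to 18 higher, 292 to 365 lower and 309 to 381 in all under the same omissions. No root library was left out, so these fits do not show how far the calls rest on single root libraries. The cause of these differences was not tested. Of the fits of the 75 identifiers of day 8 leaf under alternatives, 505 kept both direction and call and 470 kept direction only. For the change between days, over 7 identifiers, these were 36 and 48. For root minus leaf 144 kept both, but these fits cover only 12 of the 67 identifiers called.

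Deviations of same-numbered SAB and untreated leaf libraries of day 8 correlated at -0.075, 0.012 and 0.0078, and those of differently numbered ones at -0.049 to 0.044. No pairing by number was seen over all identifiers. With so few libraries these values cannot show whether same-numbered plants were sown or harvested together. The fit with the replicate number as a block, which kept 8 of the main calls of day 8 leaf, is thus not set aside. With the replicate number as a block, day 8 leaf had 9 higher, 0 lower and 9 calls in all (1428 at an unadjusted p under 0.05), the change between days 2 higher, 6 lower and 8 in all, root minus leaf 363 in all, and single rows 0 higher and 0 in all (2348 at an unadjusted p under 0.05). Estimated counts of low identifiers limit precision, as for DDF2 and ATPS3.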
